A study of Mus musculus with 6 samples.

Results

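The genes of glycolysis, lactate handling and the pentose phosphate pathway were followed through RNA-seq libraries of splenic CD4+ T cells from obese and lean mice. The set holds 38 genes, chosen by symbol from the 22899 genes of each deposited table, and all 38 were found. Obese libraries came from C57BL/6 mice on a high-fat diet with 60 kcal% fat, and lean libraries from C57BL/6 mice on a normal diet. Diets generally began at 6 to 8 weeks of age and ran for up to 4 months, and the CD4+ cells were then sorted by flow cytometry. Each group had 3 libraries, called obese 1 to 3 and lean 1 to 3. The labels give neither the sex of the mice nor whether each library came from its own animal, and p-values therefore cover the variation among libraries, which may be technical. Levels are FPKM, that is, fragments scaled to transcript length and to the library's mapped fragments, so levels of different genes can be set side by side. No read counts were used, so the depth behind a value is unknown.

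Glycolysis splits glucose into pyruvate in the cytosol and yields a little ATP, and pyruvate is then either reduced to lactate and exported or carried into mitochondria and oxidised. The pentose phosphate pathway branches off at the first glycolytic intermediate and supplies NADPH and ribose for nucleotides. Resting T cells oxidise most of their pyruvate, whereas activated T cells raise glucose uptake, glycolysis and lactate export. Several steps are encoded by paralogues with different tissue homes. Red blood cells, which lack mitochondria, use some of these forms.

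Most of the pathway lay at like levels in obese and lean libraries. Of the 38 genes, 2 rose in obese libraries and none fell (limma with Benjamini-Hochberg adjustment over all genes tested, adjusted p under 0.05), against 6.28% of the 10788 genes tested that changed in either direction. Higher genes made up 5.77% and lower genes 0.519% of all genes tested. Before adjustment, 8 members were higher and 1 was lower at p under 0.05, beside 21.9% of all genes tested that were higher and 4.01% that were lower. The 2 that rose, Pklr and Eno3, are the less abundant paralogues of pyruvate kinase and enolase. Their abundant partners, Pkm and Eno1, had log2 differences of −0.07 and −0.08. These became −0.19 and −0.20 after median-of-ratios scaling, and 0.04 and 0.03 when libraries were scaled without globin, immunoglobulin and mitochondrial genes. The groups did not overlap for 12 members, beside 31.5% of all genes tested. Of the 12, 10 were higher (26.3% of 38) and 2 were lower (5.26%) in each obese library than in any lean one, beside 25.4% and 6.15% of all genes tested. These shares are near the background and are no result about the pathway.

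On the log2(FPKM + 1) scale used for every log2 difference here, obese minus lean, the 38 genes had a median of 0.09, beside 0.10 for all genes tested. After median-of-ratios scaling both moved down together, to −0.03 for the members and −0.001 for all genes. Level in lean libraries went with the sign of the difference in the members as in all genes. That level is also a term of the difference, so sorting genes by it can by itself give such a trend. The low-level background also holds genes that passed the filter only through obese libraries, such as Epb42. The 10 members over 100 FPKM in lean libraries had a median of −0.07, beside −0.09 for all tested genes of that level. The 18 members between 10 and 100 FPKM had 0.09, beside 0.05 for all genes of that level. The 10 members under 10 FPKM had 0.24, beside 0.20 for all genes of that level. The members together took 0.716% to 0.776% of the summed FPKM of an obese library and 0.719% to 0.754% of that of a lean library.

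The libraries also carried transcripts of other cells. The 13 T cell identity genes found summed to between 3449 and 4171 FPKM in obese and between 3918 and 4352 FPKM in lean libraries, and none of them was called. The 14 erythroid markers found summed to 370.7, 98.1 and 463.4 FPKM in obese 1, 2 and 3, against 23.7 to 24.7 FPKM in lean libraries, and 11 of the 12 tested rose. All 15 macrophage markers rose, summing to between 1868 and 2046 FPKM in obese and between 794.5 and 874.8 FPKM in lean libraries. The 13 neutrophil markers summed to between 174.2 and 479.2 FPKM in obese and between 616.7 and 898.3 FPKM in lean libraries, and 6 of them fell. The 16 cell cycle genes summed to between 319.4 and 439.9 FPKM in obese and between 257.1 and 303.6 FPKM in lean libraries, and 3 of the 15 tested rose. Plasma cell markers summed to between 780.5 and 1414 FPKM in obese and between 487.9 and 574.5 FPKM in lean libraries, and 1 of 7 rose. Sums overlapped between groups for B cell, CD8 T cell, dendritic cell and platelet markers. Of the 8 NK cell markers, Ncr1, Klra8 and Klra4 fell and Tyrobp, which macrophages also express, rose. Their sums were 357.7 to 384.7 FPKM in obese and 335.4 to 357.3 FPKM in lean libraries, and without Tyrobp, left out after its values were seen, 91.9 to 109.5 FPKM in obese and 117.4 to 145.8 FPKM in lean libraries. No marker found was at 0 in every library. In bulk samples, fewer cells of a type and less RNA per cell cannot be told apart.

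**Figure D1:**
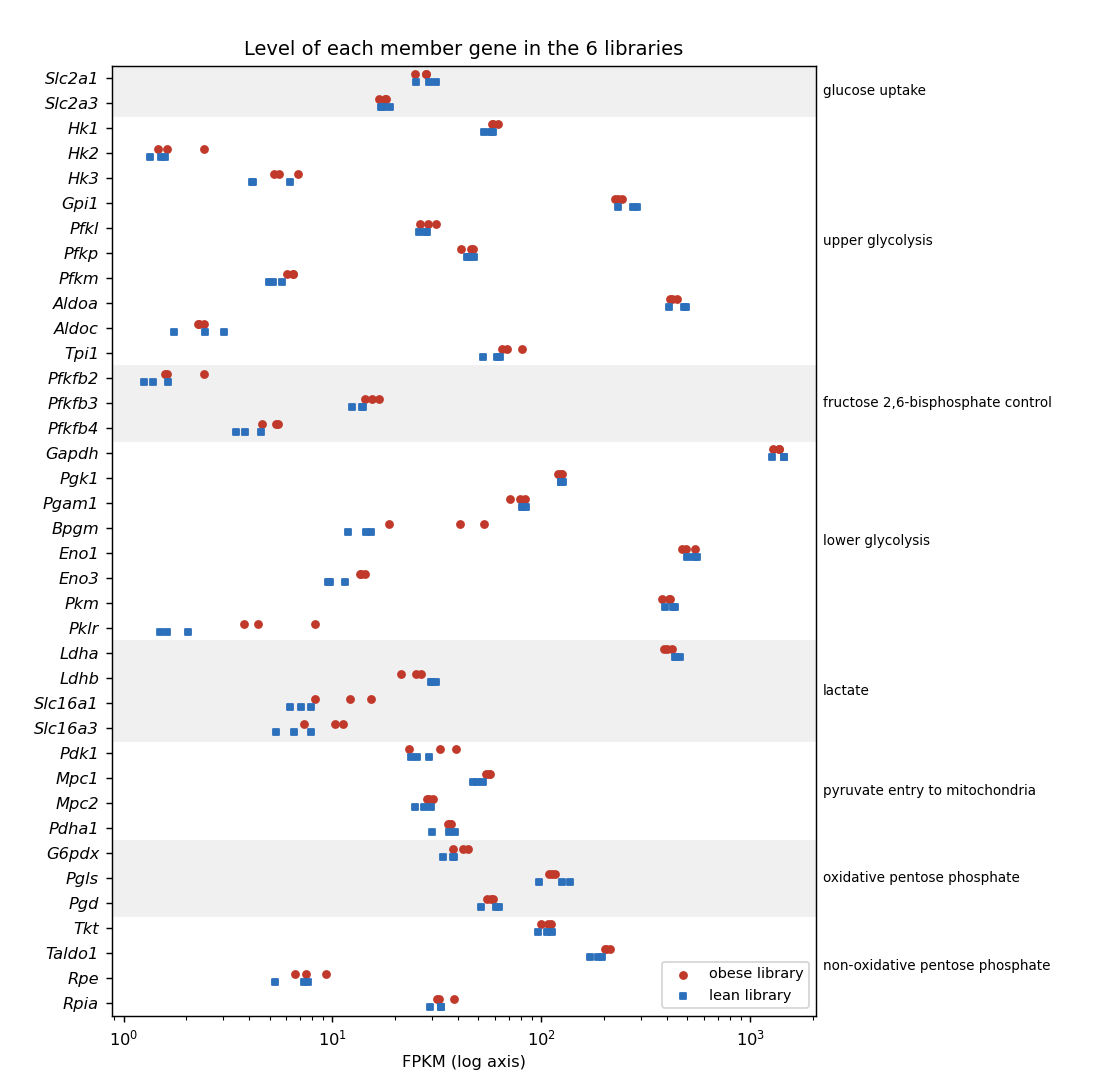
FPKM of the 38 genes in each library on a log axis, with circles for the 3 obese libraries drawn above squares for the 3 lean libraries, grouped by role. Levels ran from 1.25 FPKM for Pfkfb2 in lean 2 to 1454 FPKM for Gapdh in lean 2, and Bpgm, Pklr and Eno3 show obese circles right of every lean square.

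Glucose uptake was carried by Slc2a1 and Slc2a3, the transporters GLUT1 and GLUT3. Slc2a1 stood at 24.8, 27.9 and 28.1 FPKM in obese libraries, against 29.2, 31.2 and 25.0 FPKM in lean libraries. Slc2a3 stood at 17.9, 18.1 and 16.7 FPKM in obese libraries, against 18.9, 17.2 and 17.4 FPKM in lean libraries. The groups overlapped for both transporters. The 95% interval of the log2 difference ran from −0.3 to 0.15 for Slc2a1 and from −0.21 to 0.17 for Slc2a3. Slc2a1 made up 60.5 ± 2.40% of the summed FPKM of the pair in obese and 61.4 ± 2.83% in lean libraries (SD, n = 3 each).

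Hexokinase, which traps glucose as glucose phosphate, came mainly from Hk1. Hk1 stood at 58.9, 62.0 and 58.2 FPKM in obese libraries, against 57.3, 52.9 and 58.7 FPKM in lean libraries. Hk2, the form induced in activated T cells, was near the low end of the pathway, with 1.46, 1.62 and 2.43 FPKM in obese libraries, against 1.58, 1.34 and 1.51 FPKM in lean libraries. Hk3, a form found in myeloid cells, had 5.23, 5.55 and 6.86 FPKM in obese libraries, against 6.29, 4.13 and 4.18 FPKM in lean libraries. The groups overlapped for all 3 genes and none passed the test, with limma adjusted p of 0.494 for Hk1, 0.451 for Hk2 and 0.367 for Hk3. Hk1 took 86.2% to 89.8% of the summed hexokinase FPKM in obese and 87.9% to 91.2% in lean libraries.

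Gpi1, which turns glucose phosphate into fructose phosphate, stood at 232.7, 244.4 and 224.9 FPKM in obese libraries, against 275.4, 286.8 and 234.0 FPKM in lean libraries. The groups overlapped through lean 3, and the log2 difference of −0.18 ± 0.09 (SE) did not pass (limma, adjusted p = 0.252). Phosphofructokinase, the committing step, was made of Pfkp (the platelet form), Pfkl (the liver form) and Pfkm (the muscle form). Pfkp ranged from 41.5 to 47.3 FPKM in obese and from 43.9 to 47.6 FPKM in lean libraries, and Pfkl from 26.2 to 31.2 FPKM in obese and from 26 to 28.2 FPKM in lean libraries. Pfkm stood at 6.07, 6.48 and 6.44 FPKM in obese libraries, against 5.76, 4.99 and 5.21 FPKM in lean libraries. The groups did not overlap for Pfkm, yet its log2 difference of 0.22 did not pass (limma, adjusted p = 0.210) and was −0.01 after quantile normalization.

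Pfkfb2, Pfkfb3 and Pfkfb4, bifunctional enzymes that set the fructose bisphosphate signal of phosphofructokinase, had positive differences, and none passed the test. Pfkfb1 of the same family, counted among the further genes of glucose metabolism, had a log2 difference of −0.01. Pfkfb3, in which the kinase activity dominates, stood at 14.3, 15.5 and 16.7 FPKM in obese libraries, against 13.9, 12.4 and 13.8 FPKM in lean libraries. Pfkfb4 stood at 4.61, 5.39 and 5.51 FPKM in obese libraries, against 3.82, 4.56 and 3.46 FPKM in lean libraries. The groups did not overlap for either gene, but the lowest obese and the highest lean library were close for each. Their log2 differences were 0.20 ± 0.09 for Pfkfb3 and 0.32 ± 0.12 for Pfkfb4 (SE; limma, adjusted p = 0.221 and 0.145). Pfkfb2 ranged from 1.58 to 2.42 FPKM in obese and from 1.25 to 1.64 FPKM in lean libraries, and its log2 difference of 0.24 turned to −0.02 after quantile normalization.

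Aldoa, the main aldolase, stood at 412.0, 446.2 and 422.7 FPKM in obese libraries, against 482.8, 493.9 and 410.0 FPKM in lean libraries. Aldoc, the brain form, stayed between 2.27 and 2.42 FPKM in obese and between 1.74 and 3.02 FPKM in lean libraries. Aldoa made up over 99% of the pair in each of the 6 libraries, and the groups overlapped for both genes. Tpi1, which interconverts the triose phosphates, stood at 65.1, 68.5 and 80.6 FPKM in obese libraries, against 63.7, 61.2 and 52.5 FPKM in lean libraries. The groups did not overlap, by a margin of about 1 FPKM between obese 1 and lean 1. The log2 difference of Tpi1 was 0.27 ± 0.11 (SE) and did not pass (limma, adjusted p = 0.159).

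**Figure D2:**
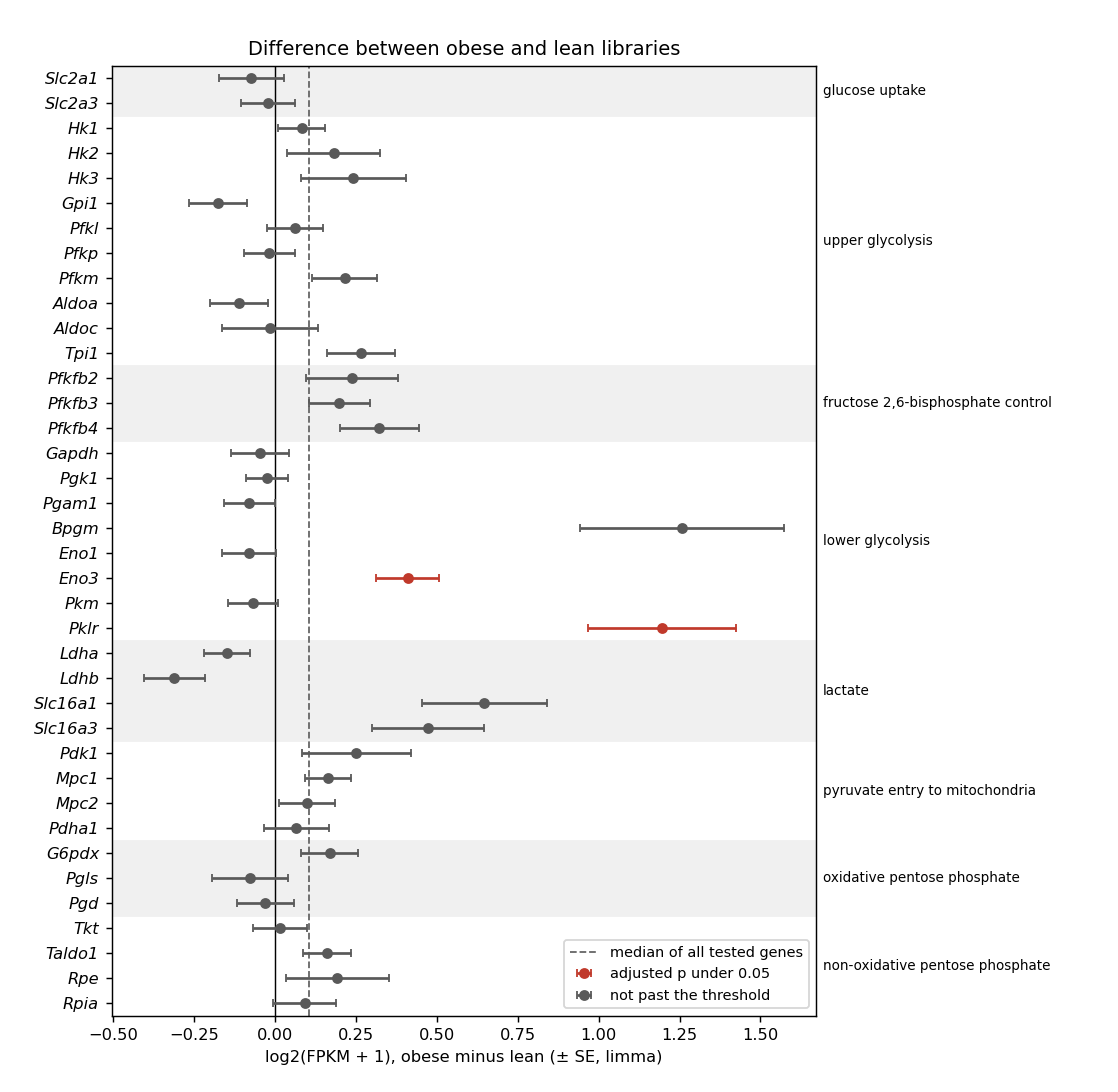
Difference of each of the 38 genes between obese and lean libraries (obese minus lean, log2(FPKM + 1), bars show the SE from limma), grouped by role, with the dashed line at the median of all genes tested, 0.10. Pklr and Eno3, in red, passed the threshold, and Bpgm lay farthest right at 1.26 with the widest SE, 0.32.

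In lower glycolysis, Gapdh, which makes the first NADH of the pathway, was the most abundant member. It stood at 1289, 1371 and 1377 FPKM in obese libraries, against 1448, 1454 and 1270 FPKM in lean libraries, and took 28.6% to 29.8% of the members' summed FPKM in obese libraries and 28.7% to 29.7% in lean libraries. Gapdh is often used as a reference transcript, and its log2 difference had a 95% interval from −0.25 to 0.16. The difference was −0.16 after median-of-ratios scaling and 0.06 when libraries were scaled without globin, immunoglobulin and mitochondrial genes. Pgk1, which makes the first ATP, was the steadiest, with 120.1, 123.8 and 125.8 FPKM in obese libraries, against 127.6, 123.6 and 124.9 FPKM in lean libraries. Its interval ran from −0.17 to 0.12. Fragments of processed pseudogene copies of such genes could be counted with the parent gene, and their values carry that uncertainty.

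Bpgm encodes bisphosphoglycerate mutase, which makes the bisphosphoglycerate that loosens the grip of haemoglobin on oxygen in red cells (gene 12183, chromosome 6, 34476356 to 34505136, GRCm38.p6). Bpgm stood at 53.3, 18.7 and 40.9 FPKM in obese libraries, against 14.5, 15.4 and 11.9 FPKM in lean libraries. Obese 1 and obese 3 were high, obese 2 stood just above the lean libraries, and the groups did not overlap. The log2 difference of 1.26 ± 0.32 (SE) did not pass the test (limma, adjusted p = 0.0529). It passed with TPM scaling (1.34; limma, adjusted p = 0.0407) and with scaling without globin, immunoglobulin and mitochondrial genes (1.36; limma, adjusted p = 0.0417). Without obese 2 it was 1.68 and passed (limma, adjusted p = 0.000408), and with obese 2 as the sole obese library it was 0.40 (limma, adjusted p = 0.569). Obese 2 also had the lowest erythroid marker sum of the obese libraries, 98.1 FPKM against 370.7 and 463.4 in obese 1 and obese 3. Macrophage, cell cycle and platelet sums were lowest in obese 2 too, at 1868, 319.4 and 43.3 FPKM. Neutrophil, B cell, plasma cell, NK cell, CD8 T cell and dendritic cell sums were lowest in obese 1, and T cell identity sums in obese 3. The part of any of these transcripts in the result was not tested. Pgam1, the glycolytic mutase of the same family, ranged from 71.1 to 83.7 FPKM in obese and from 80.4 to 84.1 FPKM in lean libraries. Bpgm therefore made up 42.9%, 19.2% and 32.8% of the summed FPKM of the pair in obese libraries, against 15.3%, 15.8% and 12.4% in lean libraries.

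Pklr rose in obese libraries. It encodes the pyruvate kinase of liver and red cells, which are made from separate promoters (gene 18770, chromosome 3, 89136122 to 89146815, GRCm38.p6). Pklr stood at 4.42, 3.78 and 8.23 FPKM in obese libraries, against 2.04, 1.5 and 1.62 FPKM in lean libraries. Each obese library lay above each lean one, and obese 3 was highest. The log2 difference was 1.2 ± 0.23 (SE; limma, adjusted p = 0.0193). It did not pass without lean 2 or without lean 3 (limma, adjusted p = 0.0767 and 0.0527), and with obese 2 as the sole obese library the log2 difference was 0.82 (limma, adjusted p = 0.0787). Erythroid marker sums were also higher in obese libraries, at 370.7, 98.1 and 463.4 FPKM against at most 24.7 FPKM in lean libraries. From obese 1 to obese 2 they fell more steeply than Pklr. Plasma cell marker sums, like Pklr, were highest in obese 3, at 780.5, 852.6 and 1414 FPKM in obese 1, 2 and 3. In lean libraries they were at most 574.5 FPKM. Among obese libraries, erythroid, neutrophil, B cell, CD8 T cell, dendritic cell and cell cycle sums were highest in obese 3 too. Macrophage and platelet sums were highest in obese 1, and NK cell and T cell identity sums in obese 2. The part of none of these was tested. Pkm, the pyruvate kinase of T cells and most other tissues, stood at 407.1, 412.0 and 380.4 FPKM in obese libraries, against 429.4, 438.9 and 390.3 FPKM in lean libraries, with overlapping groups. Pklr therefore remained a small part of the pair, 1.07%, 0.909% and 2.12% of the summed FPKM in obese libraries, against 0.473%, 0.341% and 0.413% in lean libraries.

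**Figure D3:**
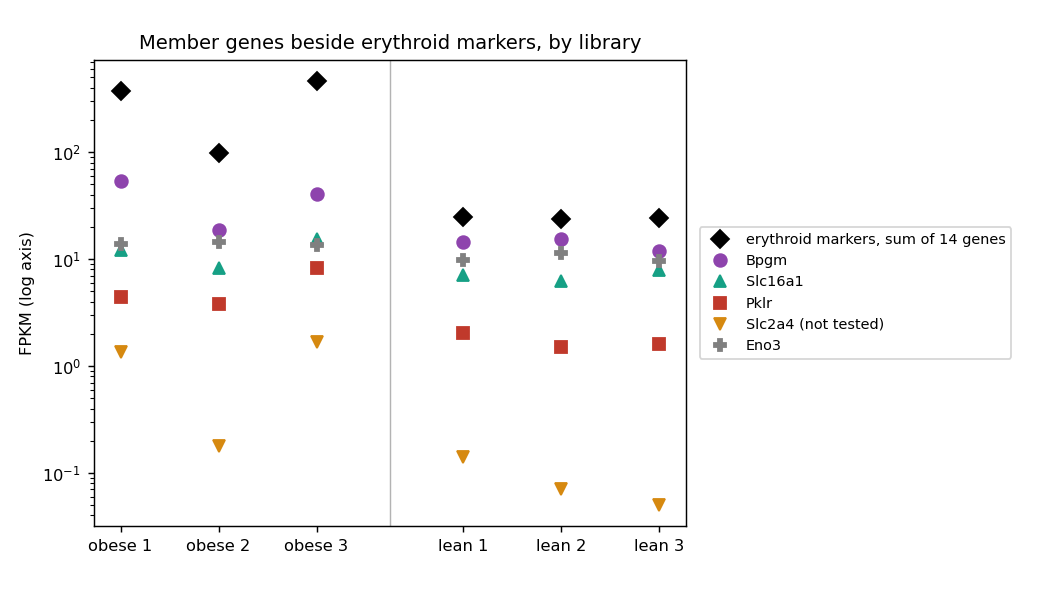
FPKM on a log axis of Bpgm, Slc16a1, Pklr, Slc2a4 and Eno3 in each obese library (left) and lean library (right), beside the sum of the 14 erythroid markers. Bpgm, Slc16a1, Pklr and Slc2a4 were lowest in obese 2 among the obese libraries, as was the marker sum. Macrophage, cell cycle and platelet marker sums, which are not drawn, were also lowest in obese 2. Eno3 stayed between 13.6 and 14.4 FPKM in the obese libraries.

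The second gene that rose was Eno3, the muscle form of enolase (gene 13808, chromosome 11, 70653125 to 70662513, GRCm38.p6). Eno3 stood at 13.7, 14.4 and 13.6 FPKM in obese libraries, against 9.75, 11.4 and 9.52 FPKM in lean libraries. The obese libraries lay close together and all above the lean ones. The log2 difference was 0.41 ± 0.10 (SE; limma, adjusted p = 0.0438). It passed in 1 of the 6 fits that left out a library, that without lean 2, with limma adjusted p up to 0.137 in the others, and it did not pass after median-of-ratios scaling (0.30; limma, adjusted p = 0.131) or quantile normalization (0.26; limma, adjusted p = 0.225). Macrophage marker sums, between 1868 and 2046 FPKM in obese and between 794.5 and 874.8 FPKM in lean libraries, were also alike among the obese libraries. Not every marker was: C1qa stood at 191.8, 161.6 and 140.8 FPKM and Lyz2 at 652.6, 649.9 and 901.6 FPKM in obese 1, 2 and 3. The part of macrophage transcripts in the result was not tested. Eno1, the main enolase, stood at 493.6, 542.1 and 471.9 FPKM in obese libraries, against 536.0, 559.4 and 497.8 FPKM in lean libraries. Eno3 made up 2.69 ± 0.105% of the summed enolase FPKM in obese and 1.89 ± 0.108% in lean libraries (SD, n = 3 each).

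The 250 bases before a transcription start listed by RefSeq are shown for Pklr and Eno3, which rose. They are also shown for Bpgm, which had the largest log2 difference of the members, and for Ldha, an abundant member. Neither Bpgm nor Ldha passed the test, and the groups did not overlap for either. Sequences are from RefSeq, GRCm38.p6, all on the plus strand. For Pklr and Ldha, with 2 listed starts each, the upstream one is used. The starts used for Pklr, Eno3 and Ldha lie inside the annotated gene span, so that only the Bpgm window ends just before its gene. Capitals mark AGATAA (a motif of GATA factors), CACACCC (a motif of erythroid Krüppel-like factors) and ACGTG (the core of the hypoxia response element), each on either strand. An ACGTG match overlaps its own reverse complement within CACGTG.
Pklr, chr3:89135892-89136141: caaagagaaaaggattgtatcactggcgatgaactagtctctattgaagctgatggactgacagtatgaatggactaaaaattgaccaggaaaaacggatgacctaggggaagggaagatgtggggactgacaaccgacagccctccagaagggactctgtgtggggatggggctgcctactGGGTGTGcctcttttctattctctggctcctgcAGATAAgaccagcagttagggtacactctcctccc
Bpgm, chr6:34476106-34476355: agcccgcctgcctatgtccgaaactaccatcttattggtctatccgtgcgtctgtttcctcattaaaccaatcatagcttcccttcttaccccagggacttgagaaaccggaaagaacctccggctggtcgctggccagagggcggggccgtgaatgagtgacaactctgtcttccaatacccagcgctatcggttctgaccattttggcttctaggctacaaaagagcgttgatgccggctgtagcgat
Eno3, chr11:70656926-70657175: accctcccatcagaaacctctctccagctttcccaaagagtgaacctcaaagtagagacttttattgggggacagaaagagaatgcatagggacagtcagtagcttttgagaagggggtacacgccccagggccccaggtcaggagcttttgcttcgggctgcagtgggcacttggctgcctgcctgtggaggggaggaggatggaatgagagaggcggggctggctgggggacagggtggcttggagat
Ldha, chr7:46845554-46845803: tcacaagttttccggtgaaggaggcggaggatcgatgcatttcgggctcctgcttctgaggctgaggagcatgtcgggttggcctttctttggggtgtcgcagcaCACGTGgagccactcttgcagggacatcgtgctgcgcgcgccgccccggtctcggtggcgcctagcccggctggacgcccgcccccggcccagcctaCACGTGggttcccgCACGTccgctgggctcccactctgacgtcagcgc

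The Pklr window held CACACCC beginning 68 bases and AGATAA beginning 35 bases before the start. The Bpgm and Eno3 windows held none of the 3 motifs, which says only that these letters are not in these windows. The Ldha window held 5 ACGTG matches in 3 separate stretches. RefSeq windows matched 37 of the 38 members, with 55 starts. AGATAA stood in 9.09% of these 55 windows and in 9.99% of all 32851 windows of the same length. CACACCC stood in 14.5% of the members' windows and 6.93% of all windows. ACGTG stood in 30.9% of the members' windows and 16.6% of all windows, in 13 members in all. Among these 13 were Ldha, Pgk1, Pkm, Hk2 and Slc2a1, none of which passed the test. These matches describe letters in the windows and were not measured as bound sites.

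Lactate dehydrogenase interconverts pyruvate and lactate as tetramers of its A and B subunits. Ldha stood at 398.8, 423.3 and 388.4 FPKM in obese libraries, against 437.1, 443.0 and 461.3 FPKM in lean libraries. Ldhb stood at 25.1, 26.5 and 21.4 FPKM in obese libraries, against 31.4, 30.1 and 29.6 FPKM in lean libraries. Both genes were lower in each obese library than in any lean one, and they were the 2 members with non-overlapping groups in that direction. Of the 780 tested genes over 100 FPKM in lean libraries, the level of Ldha, 203 were likewise lower in each obese library. At the level of Ldhb, 10 to 100 FPKM, 343 of 4994 were. The log2 differences were −0.15 ± 0.07 for Ldha and −0.31 ± 0.09 for Ldhb (SE; limma, adjusted p = 0.226 and 0.0864), so neither passed the test. After median-of-ratios scaling Ldhb had −0.43 and passed (limma, adjusted p = 0.0493), whereas Ldha had −0.27 and did not (limma, adjusted p = 0.105). The 2 genes summed to 424.0, 449.8 and 409.7 FPKM in obese libraries, against 468.5, 473.1 and 490.9 FPKM in lean libraries. Ldhb was 5.93%, 5.90% and 5.22% of the sum in obese libraries, against 6.70%, 6.35% and 6.02% in lean libraries.

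Lactate crosses the plasma membrane through monocarboxylate transporters. Slc16a1 (MCT1), which moves lactate in either direction and is also present in red cell precursors, stood at 12.1, 8.25 and 15.3 FPKM in obese libraries, against 7.06, 6.25 and 7.86 FPKM in lean libraries. Obese 2 was again the lowest obese library, and the groups did not overlap. The log2 difference of 0.65 ± 0.19 (SE) did not pass (limma, adjusted p = 0.0839), but passed without obese 2 (0.87; limma, adjusted p = 0.0119). With obese 2 as the sole obese library it was 0.20. Erythroid, macrophage, cell cycle and platelet marker sums were lowest in the same obese library, and their part was not tested. Slc16a3 (MCT4), the lactate exporter of strongly glycolytic cells, stood at 7.28, 10.3 and 11.2 FPKM in obese libraries, against 5.37, 7.89 and 6.56 FPKM in lean libraries. Its groups overlapped, and its log2 difference of 0.47 ± 0.17 (SE) did not pass (limma, adjusted p = 0.136). The sum of the pair was 19.4, 18.5 and 26.6 FPKM in obese libraries, against 12.4, 14.1 and 14.4 FPKM in lean libraries.

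Entry of pyruvate into mitochondria needs the carrier subunits Mpc1 and Mpc2 and pyruvate dehydrogenase, whose subunit Pdha1 is switched off by the kinase Pdk1. Mpc1 stood at 56.1, 54.3 and 56.6 FPKM in obese libraries, against 52.3, 47.2 and 49.4 FPKM in lean libraries, with groups that did not overlap. Its log2 difference of 0.16 did not pass (limma, adjusted p = 0.189) and was 0.05 after median-of-ratios scaling. Mpc2 ranged from 28.5 to 30.2 FPKM in obese and from 24.8 to 29.6 FPKM in lean libraries. Pdha1 ranged from 35.9 to 37.1 FPKM in obese and from 29.9 to 38.8 FPKM in lean libraries. Pdk1 varied most among the obese libraries, with 38.9, 32.9 and 23.3 FPKM, against 28.9, 25.3 and 23.7 FPKM in lean libraries. The groups overlapped for Mpc2, Pdha1 and Pdk1, and none of them passed (limma, adjusted p of 0.489, 0.705 and 0.368).

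The oxidative branch of the pentose phosphate pathway begins with G6pdx, its NADPH-making first enzyme, followed by the lactonase Pgls and the second dehydrogenase Pgd. G6pdx stood at 37.7, 42.2 and 44.5 FPKM in obese libraries, against 37.9, 38.4 and 34.0 FPKM in lean libraries. Pgls ranged from 109.3 to 116.1 FPKM in obese and from 97.6 to 137.0 FPKM in lean libraries, and Pgd from 54.9 to 58.6 FPKM in obese and from 51.6 to 62.7 FPKM in lean libraries. The groups overlapped for all 3 genes and none passed.

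In the non-oxidative branch, which exchanges carbon between sugars, Taldo1 (transaldolase) stood at 203.8, 202.0 and 213.4 FPKM in obese libraries, against 195.7, 186.6 and 172.0 FPKM in lean libraries. Its groups did not overlap, and its log2 difference of 0.16 ± 0.07 (SE) did not pass (limma, adjusted p = 0.210). Tkt (transketolase) ranged from 99.2 to 111.2 FPKM in obese and from 96.7 to 112.9 FPKM in lean libraries. The isomerases were the least abundant of the branch. Rpia ranged from 31.7 to 38.3 FPKM in obese and from 29.3 to 33.3 FPKM in lean libraries, and Rpe from 6.64 to 9.32 FPKM in obese and from 5.28 to 7.62 FPKM in lean libraries. Neither Tkt, Rpia nor Rpe passed (limma, adjusted p of 0.927, 0.575 and 0.463).

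Related genes were set against each other in 17 pairs, most of them paralogues of the same step. Bpgm and Pgam1 differ in their main reaction, and Mpc1 and Mpc2 are subunits of the same carrier. The log2 ratio of the 2 genes was taken in each library, on log2(FPKM + 1), and compared between groups by an exact permutation test over libraries, 2-sided, whose smallest possible p with 3 against 3 is 0.1. The groups did not overlap for 5 pairs, each with an exact permutation p = 0.1 and an adjusted p of 0.34 over the 17 pairs. No pair could pass a threshold of 0.05. Groups also did not overlap for 31.5% of all single genes tested, and no such share was taken over other pairs of genes. Some of the 17 pairs share a gene and are not independent. The count of 5 is therefore no result about paralogues. The ratio of Bpgm to Pgam1 averaged −1.15 ± 0.81 in obese and −2.48 ± 0.21 in lean libraries (SD, n = 3 each). The ratio of Pklr to Pkm averaged −6.01 ± 0.57 in obese and −7.28 ± 0.16 in lean libraries (SD, n = 3 each). The ratio of Eno3 to Eno1 averaged −5.08 ± 0.06 in obese and −5.57 ± 0.07 in lean libraries (SD, n = 3 each). In these 3 pairs the rarer paralogue held a larger share in each obese library than in any lean one. The other two were Pfkp to Pfkm, with a difference of −0.23 between obese and lean libraries, and Ldhb to Ldha, with −0.16.

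**Figure D4:**
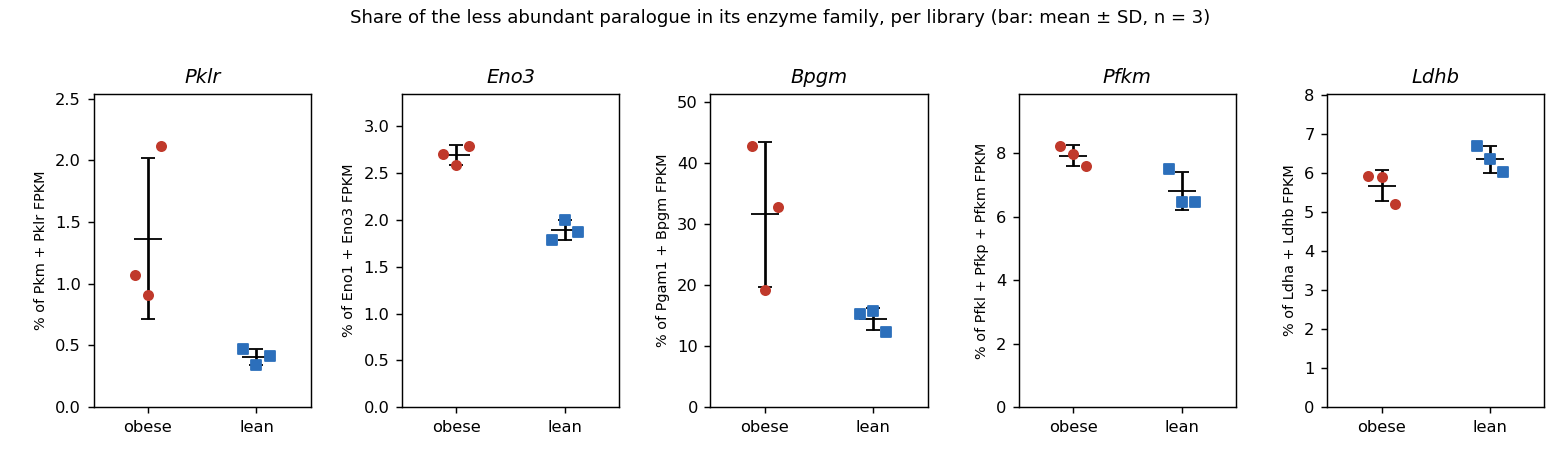
Share of Pklr, Eno3, Bpgm, Pfkm and Ldhb in the summed FPKM of their enzyme family (percent, axis from 0), for each obese library (left in each panel) and lean library (right), with the mean and SD of 3 libraries. Pklr, Eno3, Bpgm and Pfkm lay higher and Ldhb lower in each obese library than in any lean one, and Bpgm spread from 19.2% to 42.9% among obese libraries.

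The remaining 12 pairs had overlapping groups, with exact permutation p from 0.2 to 1. Their differences between obese and lean libraries were between −0.18 (Slc16a3 to Slc16a1) and 0.16 (Hk3 to Hk1). With 3 libraries a group, overlap does not show that paralogues responded alike.

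Of 53 further genes of glucose metabolism, 43 were tested, and 3 rose while none fell. Over all genes tested, 5.77% were higher and 0.519% were lower, so these counts are no result about the list. Gpd1, which links the triose phosphates to glycerol phosphate, stood at 3.10, 2.87 and 2.88 FPKM in obese libraries, against 1.33, 1.22 and 1.15 FPKM in lean libraries. Its groups lay far apart for so low a level, with a log2 difference of 0.82 ± 0.10 (SE; limma, adjusted p = 0.00265), and it passed in all 6 fits that left out a library. Pygl, a glycogen phosphorylase, stood at 6.99, 7.11 and 7.68 FPKM in obese libraries, against 4.5, 3.86 and 4.87 FPKM in lean libraries (log2 difference 0.61; limma, adjusted p = 0.0144). Slc2a6, a glucose transporter family member of immune cells, stood at 5.39, 6.14 and 5.92 FPKM in obese libraries, against 3.73, 3.86 and 3.14 FPKM in lean libraries (log2 difference 0.58; limma, adjusted p = 0.0195). Pygl did not pass without lean 1 or lean 2 (limma, adjusted p up to 0.0547), and Slc2a6 did not pass without obese 2 or lean 1 (limma, adjusted p up to 0.0680). The obese libraries were alike for each of the 3 genes, and the macrophage marker sum was likewise 1868 to 2046 FPKM in obese and at most 874.8 FPKM in lean libraries. The part of macrophage transcripts was not tested. The list's median log2 difference was 0.09, beside 0.10 for all genes tested.

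None of the 18 genes of the tricarboxylic acid cycle, which takes up pyruvate carbon, was called (limma; 2 were higher and none was lower at an unadjusted p under 0.05, beside 21.9% and 4.01% of all genes tested), and their median log2 difference was 0.03. The 2 with the smallest p, Fh1 (fumarase) and Dlst, had log2 differences of 0.34 and 0.22 (limma, adjusted p = 0.0637 and 0.0978). Of 22 regulators of glycolytic genes, 1 rose and none fell, beside 5.77% and 0.519% of all genes tested. At an unadjusted limma p under 0.05, 5 were higher and 2 were lower, beside the same 21.9% and 4.01%. The 1 that rose was Egln3, a prolyl hydroxylase that marks HIF proteins for destruction and is itself a HIF target. Egln3 stood at 4.75, 5.18 and 6.31 FPKM in obese libraries, against 3.62, 3.54 and 3.41 FPKM in lean libraries (log2 difference 0.50; limma, adjusted p = 0.0449). It passed in none of the 6 fits that left out a library (limma, adjusted p up to 0.124). Hif1a, the hypoxia-inducible factor, did not pass (limma, adjusted p = 0.0703). It stood at 28.6, 30.0 and 37.6 FPKM in obese libraries, against 21.2, 17.8 and 26.4 FPKM in lean libraries. Bhlhe40 and Irf4 had smaller p than Hif1a, with log2 differences of 0.61 and 0.65. They did not pass either (limma, adjusted p = 0.0559 and 0.0594). Myc, which drives glycolytic genes in activated T cells, ranged from 30.9 to 36.9 FPKM in obese and from 33.6 to 36.8 FPKM in lean libraries. Of 15 HIF targets outside glycolysis, 11 were tested and none was called (limma; 2 were higher and none was lower at an unadjusted p under 0.05, beside the same 21.9% and 4.01%). The 2 with the smallest p, Ankrd37 and Mxi1, had log2 differences of 0.52 and 0.23 (limma, adjusted p = 0.0963 and 0.159).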

How the data were processed

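For each library the authors deposited FPKM values, given to 2 decimals beside gene numbers and symbols. The submitters' processing notes name Bowtie, RSEM, GRCm38 and mm10, with no tool versions. The annotation, the filters and the use of strand are not stated in the sources used. FPKM is relative to a library's mapped fragments, so a few abundant transcripts can lower all others. A search of low values for steps worth 1 read gave scores of 0.274 to 0.474 (highest possible 1), against at least 0.966 in simulated whole reads, so the depth is unknown.

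Groups were taken from the labels. A gene was tested if 3 or more of the 6 libraries had 1 FPKM or more; 10788 genes passed, among them all 38 members. They were tested on log2(FPKM + 1) with limma 3.58.1 in R 4.3.3 (eBayes with intensity trend, 2-sided, group as sole term). Adjusted p is Benjamini-Hochberg over all genes tested, called under 0.05; intervals are 95% from limma's SE. The fit was checked on simulated data. Paralogue ratios were tested by exact permutation. Positions and promoters come from RefSeq GRCm38.p6. Members, lists and tests were chosen with earlier results of these data known. All members are named, as are called genes or those with the smallest p of each further list. Bhlhe40, Irf4, Hif1a, Myc and Slc2a4 were named after their values were seen. Alternatives were another pseudocount, filters, scalings, variance models, the replicate number as a block and leaving out libraries.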

Additional observations from a re-analysis of the deposited data

How the results depend on the processing

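Pklr, Eno3, Bpgm, Ldhb, Slc16a1 and Slc16a3 were the members called in at least 1 fit, and the other 32 were called in none of up to 17 alternatives; 21 members changed sign in at least 1, while called in neither fit. The 2 higher members became 4 with the replicate block (Slc16a1 and Slc16a3 added), 3 with TPM scaling and 3 with scaling without globin, immunoglobulin and mitochondrial genes (Bpgm added in both), 1 with a filter of 5 FPKM, which removed Pklr from the test, 1 after median-of-ratios scaling and 1 after quantile normalization. They became 0 without a filter on low values (limma adjusted p of 0.0720 for Pklr and 0.0768 for Eno3) and 0 with obese 2 as the sole obese library, a fit added after seeing the data in which that library is assumed to vary like the lean ones. Leaving out 1 library gave 0 to 3 higher members, 0 without lean 3. The 0 lower members became 1 (Ldhb) after median-of-ratios scaling. The 3 higher genes among the other glucose metabolism genes became 1 after quantile normalization, 0 with obese 2 as the sole obese library and 1 to 4 with 1 library left out, and the 0 lower ones became 1 after median-of-ratios scaling. The median log2 difference of members, 0.09, was −0.029 after median-of-ratios scaling, −0.001 after quantile normalization, 0.15 with TPM scaling and 0.19 with scaling that left out globin, immunoglobulin and mitochondrial genes; relative to all genes it stayed between −0.03 and 0.03 in these fits. Pairs of paralogues with non-overlapping groups, 5 of 17, were 5 to 8 with 1 library left out and 4 after quantile normalization, where the Pfkp to Pfkm groups overlapped (−0.05) and Ldhb to Ldha had −0.32. Pklr exceeded Bpgm in log2 difference with a pseudocount of 0.1 (1.54 against 1.31) and with TPM scaling (1.37 against 1.34). It also did so without obese 1, where Bpgm had 0.95, and without lean 3. With obese 2 as the sole obese library, Pklr had 0.82 and Bpgm 0.40. Over all genes, the higher genes were 91.7% of calls, 77.4% after median-of-ratios scaling and 74.2% after quantile normalization. Other than as stated, the cause was not tested.

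Whether the replicate numbers in the labels pair the libraries could not be decided, and the main fit took the libraries as unpaired. Deviations from group means correlated at 0.03, 0.06 and 0.19 between same-numbered libraries. Between differently numbered libraries they correlated at −0.17 to 0.16. With the replicate number as a block, 866 genes were called higher and 149 lower, against 622 and 56 in the main fit. The number of libraries limits the precision, and with no depth no floor could be given for low genes such as Hk2.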

Other observations

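Slc2a4, the insulin-responsive transporter GLUT4, was too low for the test. It was listed at 1.34, 0.18 and 1.68 FPKM in obese libraries, against 0.14, 0.07 and 0.05 FPKM in lean libraries. It was named after its values were seen, because obese 2 was again the lowest obese library. The erythroid markers Slc4a1, a red cell anion exchanger, and Alas2, the first enzyme of haem synthesis, had the same order in that respect. They stood at 19.8 and 15.8 FPKM in obese 2 and at most 2.19 FPKM in lean libraries. In obese 1 and obese 3 they stood at 90.3 FPKM or more. Macrophage, cell cycle and platelet marker sums were also lowest in obese 2 among the obese libraries.

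Fructose bisphosphatase (Fbp1, Fbp2), the gluconeogenic kinase Pck1, Hkdc1 and Pdk4 stayed under 1 FPKM in each of the 6 libraries.

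P4ha1, a HIF target that hydroxylates collagen, stood at 16.95, 17.7 and 18.75 FPKM in obese libraries, against 16.3, 14.4 and 63.5 FPKM in lean libraries. Lean 3 stood apart for this gene, which was named after its values were seen.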
